A study of Homo sapiens with 10 samples.

Results

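Semaphorins, plexins and neuropilins are the ligands, receptors and co-receptors of one guidance system, and their mRNAs were followed in MDA-MB-231 cells treated with dasatinib. The family was chosen with earlier results of these data known. Its genes were picked by symbol: semaphorins of classes 3 to 7, plexins A to D and the neuropilins *NRP1* and *NRP2*. The plexin domain containing genes *PLXDC1* and *PLXDC2*, which carry the plexin name but are not semaphorin receptors, were included. This gave 33 of the 36687 genes in the deposited tables, of which 30 passed a filter on low counts and were tested together with 15727 genes in all. MDA-MB-231 is a human triple-negative breast cancer line classed as basal B, with mesenchymal features and given as wild type in the labels, and dasatinib blocks SRC family and ABL kinases. Untreated cells (0 h) and cells kept in dasatinib for 6 h, 12 h, 24 h or 48 h made up 5 groups of 2 biological replicates each. The dose, 100 nM, comes from a figure legend of the study, and the 0 h samples are titled sham although their treatment field names the drug. No sample of the series is of untreated cells collected at the later times, so time in culture and the drug cannot be told apart.

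Semaphorins are secreted (class 3) or bound to the membrane (classes 4 to 7), and they signal through plexins, large receptors whose cytoplasmic part acts on small GTPases of the Ras and Rap families and so on adhesion and the actin cytoskeleton. Most class 3 semaphorins need a neuropilin as the ligand-binding partner of a class A plexin, *SEMA3E* binds plexin D1 directly, and the class 4 ligands act mainly on class B plexins. First described in axon guidance, the system is also known for its part in vessel growth and in the migration of carcinoma cells, and neuropilins in addition bind VEGF.

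Promoter sequence is shown for the genes with the largest rise at 48 h, *PLXND1* and *PLXDC2*. It is also shown for a receptor and a ligand that were lower, *NRP2* and *SEMA7A*, so that base composition can be seen beside opposite changes. The 48 h call of *NRP2* was lost in 14 of 19 alternative settings of the fit and that of *SEMA7A* in 2. The runs are the 250 bases upstream of the RefSeq start (GRCh38.p14), 5′ to 3′ on the strand of the gene, and capitals mark every match of the letters searched. They lie at chr3:129606677-129606926 (minus strand), chr10:19816182-19816431 (plus strand), chr2:205682251-205682500 (plus strand) and, for 1 of the 2 starts listed for *SEMA7A*, chr15:74433959-74434208 (minus strand).
PLXND1: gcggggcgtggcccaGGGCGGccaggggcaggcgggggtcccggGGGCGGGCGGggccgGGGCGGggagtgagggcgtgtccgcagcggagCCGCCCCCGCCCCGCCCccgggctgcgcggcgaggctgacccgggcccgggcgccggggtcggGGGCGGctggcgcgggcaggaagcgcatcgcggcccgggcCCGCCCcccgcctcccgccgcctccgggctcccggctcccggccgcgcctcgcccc
PLXDC2: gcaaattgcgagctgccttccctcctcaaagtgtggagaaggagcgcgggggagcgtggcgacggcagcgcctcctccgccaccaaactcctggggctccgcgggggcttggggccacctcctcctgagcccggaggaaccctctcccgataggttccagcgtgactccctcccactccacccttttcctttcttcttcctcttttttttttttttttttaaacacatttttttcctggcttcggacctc
NRP2: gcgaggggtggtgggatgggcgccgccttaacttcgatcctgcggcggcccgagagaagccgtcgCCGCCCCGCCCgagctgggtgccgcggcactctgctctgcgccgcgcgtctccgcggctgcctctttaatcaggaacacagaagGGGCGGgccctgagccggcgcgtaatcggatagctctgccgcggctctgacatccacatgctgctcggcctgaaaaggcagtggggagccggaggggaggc
SEMA7A: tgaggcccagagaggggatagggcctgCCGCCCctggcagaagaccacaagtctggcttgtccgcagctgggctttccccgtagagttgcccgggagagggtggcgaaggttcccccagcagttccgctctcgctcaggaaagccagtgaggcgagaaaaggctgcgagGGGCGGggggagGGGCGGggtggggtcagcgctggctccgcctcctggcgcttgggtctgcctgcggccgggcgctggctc
The letters searched on both strands were an ETS core (CCGGAAG), an AP-1 element (TGANTCA), a TEAD element (GGAATG), a FOXO element (TGTTTAC), an E-box (CACGTG) and a GC box (GGGCGG), and overlapping matches were each counted. All capitals in these 4 runs are GC boxes, with 9 matches in *PLXND1*, 0 in *PLXDC2* and 3 each in *NRP2* and *SEMA7A*. Of the members, 28 had a promoter in the RefSeq table, and 18 of these 28 held a GC box, against 42.6% of the 35116 promoters of all genes. For each member only the first start listed was used, while the 35116 promoters hold every start listed. The ETS core stood in 2 of the 28 (*PLXNB1* and *SEMA4B*), against 8.52% of all promoters. The AP-1 element stood in *PLXNC1* alone, against 6.57%. The median GC content was 64.0% over the members and 58.0% over all promoters, and it was 88.8% in *PLXND1*, the highest of the members. GC boxes thus stood upstream of the RefSeq starts of genes that rose and of genes that fell. A match is a description of the letters only.

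Total gene counts were 40942913 to 49133774 per library. Replicate 1 at 12 h stood apart, with a highest correlation of log2 CPM with any other library of 0.955, against 0.983 to 0.987 for the other 9 libraries, and it widens the spread that all groups share in the fit. Of the 30 members tested, 23 were higher in this library than in 12 h replicate 2, by a median of 0.28 on the log2 scale, while the median over all genes with a known length was -0.01. The members are long genes, with a median exonic length of 8487 bases against 5307 over those genes, and genes of at least 5000 bases differed between the 2 libraries by a median of 0.19; the part of length in the members' 12 h values was not tested further. The mesenchymal markers *VIM*, *CD44*, *MSN*, *AXL*, *ETS1* and *CAV1* had at least 37.5 TPM in every library. *ESR1* had at most 0.144 TPM and *PGR* was listed at 0, while the luminal markers *FOXA1*, *GATA3*, *SPDEF* and *KRT8* had at least 8.49 TPM throughout. Markers of other cells that use this system were low: of the endothelial markers *CDH5*, *KDR* and *TEK* had at most 0.829 TPM and *PECAM1* at most 3.61 TPM, and of the neuronal markers *RBFOX3* and *SYN1* had at most 0.239 TPM, *TUBB3* 0.896 to 2.34 TPM and *MAP2* 0.553 to 3.07 TPM. The summed endothelial markers ranged from 1.29 to 4.82 TPM in treated and from 0.942 to 1.43 TPM in untreated libraries, and the summed neuronal markers from 2.03 to 4.71 TPM in treated and from 1.97 to 3.47 TPM in untreated libraries. The part of these cells in the members' values was not tested.

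TPM values are scaled by gene length and library total, so levels can be set side by side between genes. In untreated cells the class B plexin gene *PLXNB2* had the highest level, 86.0 ± 6.95 TPM (SD, n = 2), followed by *NRP1* with 61.1 ± 1.46 TPM (SD, n = 2) and *PLXNA1* with 49.1 ± 0.06 TPM (SD, n = 2). *SEMA3C* led the ligands with 38.1 ± 2.45 TPM (SD, n = 2). *SEMA6B*, *PLXNA2* and *SEMA4B* followed between 32.6 and 31.0 TPM on average, and in this order the libraries of neighbouring genes overlapped. *PLXND1* stood eighth in that order with 23.5 ± 0.39 TPM (SD, n = 2). After 48 h *NRP1* led with 173.2 ± 11.3 TPM (SD, n = 2) and *PLXND1* came next with 120.6 ± 4.74 TPM (SD, n = 2). *PLXNB2* and *PLXNA1*, next in order, overlapped between libraries. *PLXND1* made up 27.6% and 27.7% of the summed plexin TPM at 48 h, against 11.1% and 11.4% at 0 h, and *PLXNB2* made up 25.5% and 24.4% at 48 h, against 42.6% and 39.7% at 0 h. The order of the plexins therefore changed, with plexin D1 in the place that plexin B2 held in untreated cells.

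After 48 h of dasatinib, 17 of the 30 members exceeded their level in untreated cells and 3 fell below it (edgeR, adjusted p under 0.05). Over all genes tested, 16% were higher and 16.3% lower. The median log2 fold change was 0.83 over the members and 0.01 over all genes. By role, 6 of 9 plexins were higher and 0 were lower (median 1.28), 9 of 17 semaphorins were higher and 2 lower (median 0.57), and the 2 neuropilins moved in opposite directions. The summed TPM of all members was 918 and 895 at 48 h, against 462 and 464 at 0 h. The plexins alone summed to 449 and 423 TPM at 48 h, against 214 and 204 TPM at 0 h. In bulk RNA a change in the cells present and a change in RNA per cell cannot be told apart. Of the 20 calls, 12 held under each of 19 alternative settings, and those that did not are given with the gene. The count of lower members fell without any 1 of the 0 h, 6 h, 24 h and 48 h libraries, as did the count over all genes.

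**Figure D1:**
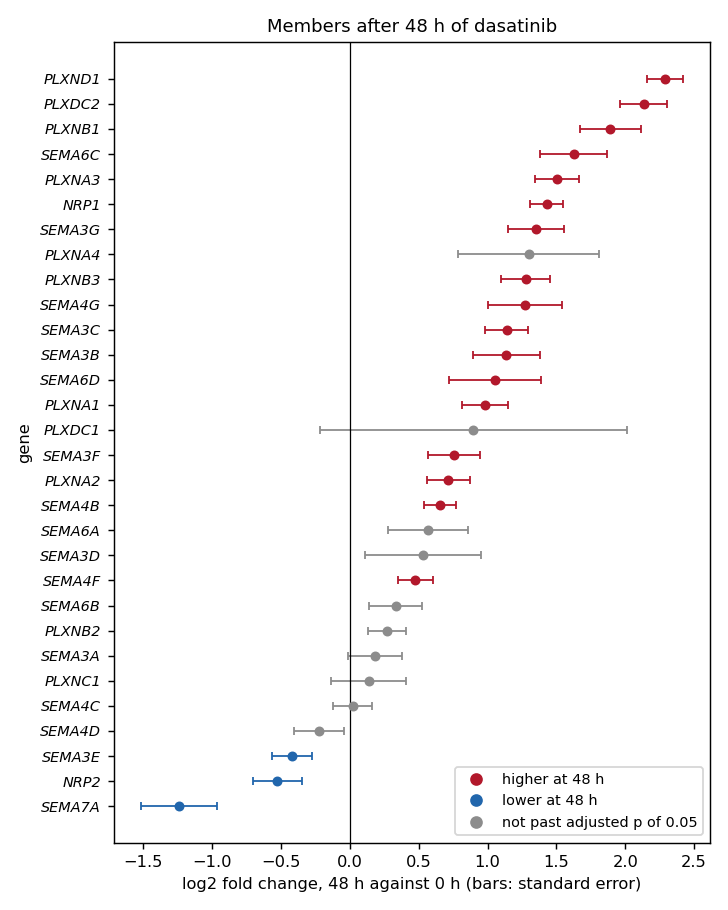
Log2 fold change (x axis) of each of the 30 tested members (y axis, ordered by value) at 48 h against 0 h, from edgeR over 2 libraries per group. Points are estimates, bars are standard errors and colour gives the call; *PLXND1* lies at 2.29 and *SEMA7A* at -1.24, the ends of the range.

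Plexin D1, the receptor of *SEMA3E* known for its role in vessel patterning, had the largest rise. *PLXND1* had 23.8 and 23.2 TPM at 0 h, 29.97 and 31.2 TPM at 6 h, 57.8 and 42.7 TPM at 12 h, 77.2 and 83.7 TPM at 24 h, and 124 and 117 TPM at 48 h. Both libraries of each time lay above both libraries of the time before. At 48 h it was raised by 2.29 on the log2 scale (standard error, SE, of 0.13, edgeR adjusted p = 4.4e-06). The log2 fold change was 0.99 at 12 h (edgeR adjusted p = 0.0024), a call lost only in the fit of the 2 groups alone (adjusted p = 0.216), and 0.39 at 6 h (adjusted p = 0.16), which did not pass.

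Class A plexins pair with neuropilins for class 3 ligands, and 3 of their 4 genes rose at 48 h, beside 16% of all genes. *PLXNA1* had 49.2 and 49.1 TPM at 0 h, 50.9 and 56.9 TPM at 6 h, 93.3 and 59.5 TPM at 12 h, 89.7 and 91.7 TPM at 24 h, and 106 and 97.5 TPM at 48 h. *PLXNA3* had 10.8 and 10.01 TPM at 0 h, 11.4 and 11.4 TPM at 6 h, 19.8 and 13.6 TPM at 12 h, 17.1 and 21.2 TPM at 24 h, and 32.0 and 30.02 TPM at 48 h. For both genes the 12 h libraries were the furthest apart, replicate 1 being the higher. The log2 fold change at 48 h was 0.98 for *PLXNA1* (SE 0.17, edgeR adjusted p = 0.0015). It was 1.505 for *PLXNA3* (SE 0.16, edgeR adjusted p = 8.7e-05). *PLXNA2* took another course, with 30.8 and 32.8 TPM at 0 h, 17.6 and 17.6 TPM at 6 h, 31.1 and 19.7 TPM at 12 h, 36.6 and 38.7 TPM at 24 h, and 54.7 and 55.0 TPM at 48 h. It fell at 6 h and was above the untreated level at 48 h, with libraries that did not overlap those of untreated cells at either time. The log2 fold change of *PLXNA2* was -0.85 at 6 h (SE 0.16, edgeR adjusted p = 0.020) and 0.71 at 48 h (SE 0.16, adjusted p = 0.0061). The 6 h call was lost in 10 of 19 alternatives, among them without any 1 of the 0 h, 6 h and 24 h libraries or 48 h replicate 1 (adjusted p up to 0.195), and the 48 h call only without 0 h replicate 1 (adjusted p = 0.0546). *PLXNA4* was low, at 0.135 to 0.513 TPM, and its log2 fold change of 1.30 at 48 h did not pass (SE 0.51, edgeR adjusted p = 0.079).

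Class B plexins are receptors of class 4 semaphorins. *PLXNB1* had 0.978 and 1.04 TPM at 0 h, 1.49 and 1.69 TPM at 6 h, 1.47 and 1.77 TPM at 12 h, 2.35 and 2.85 TPM at 24 h, and 3.65 and 4.25 TPM at 48 h. *PLXNB3*, the receptor of *SEMA5A*, had 4.88 and 4.33 TPM at 0 h, 3.56 and 3.64 TPM at 6 h, 8.61 and 5.82 TPM at 12 h, 7.96 and 9.24 TPM at 24 h, and 11.5 and 12.0 TPM at 48 h. In both genes every 48 h library exceeded every earlier one. *PLXNB1* rose by 1.89 on the log2 scale at 48 h (SE 0.22, edgeR adjusted p = 0.00014) and *PLXNB3* by 1.28 (SE 0.18, adjusted p = 0.00043). Of the exonic bases of *PLXNB3*, 20.4% are shared with *SRPK3* on the same strand in GENCODE 44, so some of its reads may belong to that gene. *PLXNB2*, the most abundant plexin mRNA of untreated cells, had 90.9 and 81.1 TPM at 0 h, 79.8 and 81.9 TPM at 6 h, 106 and 79.2 TPM at 12 h, 88.1 and 97.6 TPM at 24 h, and 115 and 103 TPM at 48 h. A log2 fold change of 0.27 at 48 h did not pass (SE 0.14, edgeR adjusted p = 0.16), although both 48 h libraries lay above both untreated ones. *PLXNC1*, the receptor of semaphorin 7A, had 1.74 to 4.48 TPM over all libraries and passed in no comparison.

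**Figure D2:**
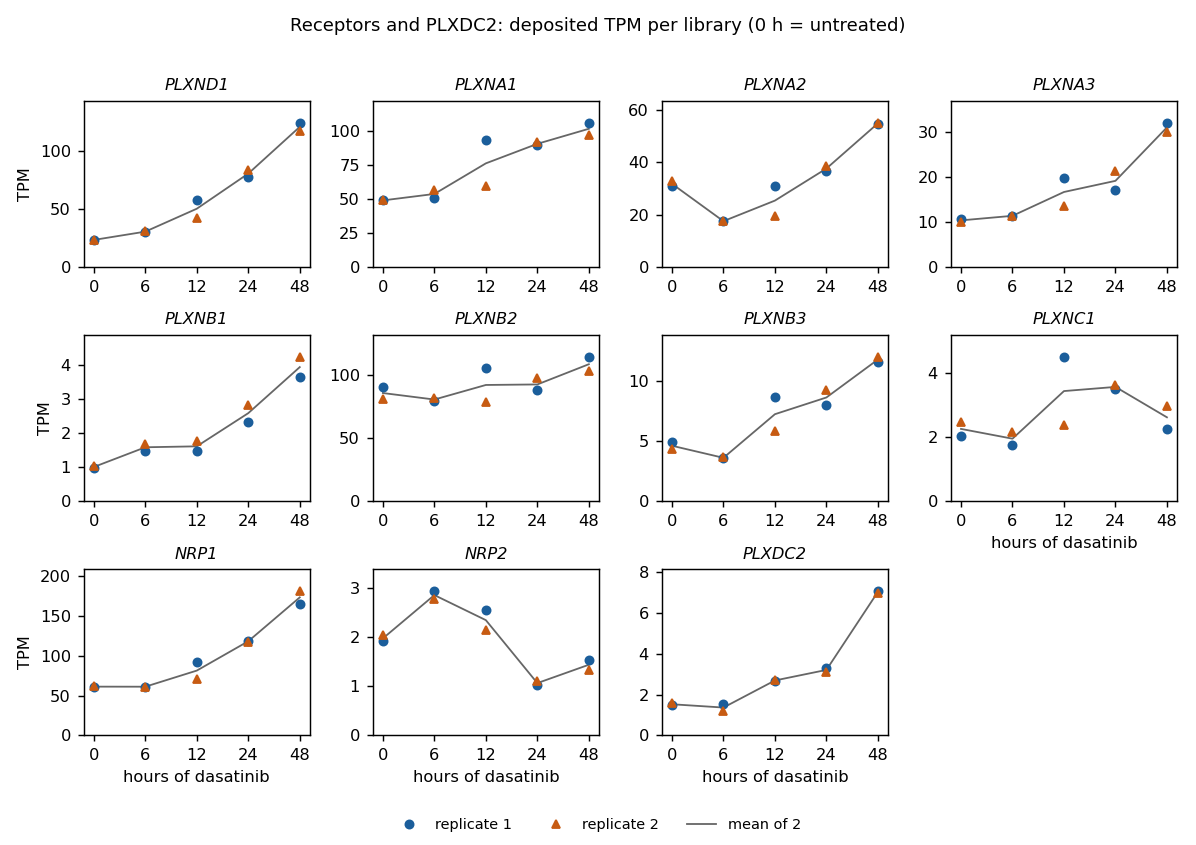
Deposited TPM (y axes, scales differ) against hours of dasatinib (x axes, evenly spaced categories) for plexins, neuropilins and *PLXDC2*, with a circle for replicate 1, a triangle for replicate 2 and a line through their mean. *PLXND1* and *NRP1* are highest in both 48 h libraries, *PLXNA2* dips to 17.6 TPM in both 6 h libraries, and *NRP2* is lowest at 24 h.

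The neuropilins, which bind class 3 semaphorins and VEGF, diverged. *NRP1* had 60.1 and 62.2 TPM at 0 h, 60.8 and 61.3 TPM at 6 h, 91.5 and 71.1 TPM at 12 h, 119 and 117 TPM at 24 h, and 165 and 181 TPM at 48 h. The 6 h libraries lay within the range of the untreated ones and the later ones above it. *NRP1* rose by 0.86 on the log2 scale at 24 h (SE 0.12, edgeR adjusted p = 0.00094) and by 1.43 at 48 h (SE 0.12, adjusted p = 2.4e-05), and both calls held under all 19 alternatives. *NRP2*, which prefers *SEMA3F*, had 1.92 and 2.04 TPM at 0 h, 2.94 and 2.78 TPM at 6 h, 2.56 and 2.14 TPM at 12 h, 1.02 and 1.11 TPM at 24 h, and 1.54 and 1.34 TPM at 48 h. It was above the untreated libraries at 6 h without passing the test (log2 fold change 0.54, edgeR adjusted p = 0.16), and it fell at 24 h by 0.98 (SE 0.18, adjusted p = 0.0039). The 24 h call was lost in the 3 fits on log2 TPM. At 48 h the log2 fold change of *NRP2* was -0.53 (edgeR adjusted p = 0.043), but this call was lost in 14 of 19 alternatives and without each 0 h and each 48 h replicate in turn (adjusted p up to 0.256). *NRP1* mRNA was 107 and 136 times as abundant as *NRP2* mRNA by TPM at 48 h, against 31.3 and 30.5 times at 0 h, and the ratio was lowest at 6 h, at 20.7 and 22.1.

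*PLXDC2*, which encodes a membrane protein described as a receptor of pigment epithelium-derived factor, had the next largest rise after *PLXND1*. It had 1.47 and 1.58 TPM at 0 h, 1.54 and 1.18 TPM at 6 h, 2.66 and 2.72 TPM at 12 h, 3.28 and 3.13 TPM at 24 h, and 7.07 and 6.98 TPM at 48 h. The 6 h libraries overlapped the untreated ones and the replicates of each later time were close together. *PLXDC2* rose by 2.13 on the log2 scale at 48 h (SE 0.17, edgeR adjusted p = 1.8e-05). Its paralog *PLXDC1*, known as a marker of tumour endothelium, had 0 to 54 counts per library and passed in no comparison. Every other member tested had at least 26 counts in each library.

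Among the class 3 semaphorins, 4 of 7 were higher at 48 h and 1 was lower, beside 16% higher and 16.3% lower of all genes. The lower one was *SEMA3E*, whose 48 h call was lost in 15 of 19 alternatives. *SEMA3C*, a ligand of both neuropilins, had 36.4 and 39.8 TPM at 0 h, 27.1 and 29.1 TPM at 6 h, 55.9 and 37.4 TPM at 12 h, 64.2 and 59.6 TPM at 24 h, and 84.9 and 91.4 TPM at 48 h. Its log2 fold change was 1.14 at 48 h (SE 0.16, edgeR adjusted p = 0.00038) and -0.43 at 6 h, which did not pass (adjusted p = 0.21). *SEMA3A*, the collapsing ligand that acts through neuropilin 1 and class A plexins, had 18.0 and 19.4 TPM at 0 h, 7.45 and 7.27 TPM at 6 h, 15.5 and 9.51 TPM at 12 h, 14.1 and 11.04 TPM at 24 h, and 21.0 and 23.7 TPM at 48 h. Its libraries lay below the untreated ones at 6, 12 and 24 h, furthest at 6 h, and slightly above them at 48 h. At 24 h the log2 fold change of *SEMA3A* was -0.66 (SE 0.20, edgeR adjusted p = 0.042), a call lost in 11 of 19 alternatives. *SEMA3A* fell by 1.33 on the log2 scale at 6 h (SE 0.20, edgeR adjusted p = 0.0073), and at 48 h its log2 fold change of 0.18 did not pass (SE 0.20, adjusted p = 0.51). The 6 h call was lost in 5 of 19 alternatives. These were limma on log2(TPM + 1) with no filter (adjusted p = 0.0694) and the fits without any 1 of the 0 h and 6 h libraries. The ratio of *SEMA3C* to *SEMA3A* by TPM stood at 2.02 and 2.05 in untreated cells. It was 3.64 in 6 h replicate 1 and 4.0 in 6 h replicate 2, reached 4.56 and 5.40 at 24 h, and was 4.05 and 3.85 at 48 h, so that it lay above the untreated ratio from 6 h on and was highest at 24 h.

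*SEMA3F*, a ligand of neuropilin 2 first described as a candidate tumour suppressor of the short arm of chromosome 3, peaked early. It had 4.53 and 4.09 TPM at 0 h, 11.9 and 8.98 TPM at 6 h, 16.0 and 11.5 TPM at 12 h, 8.04 and 8.27 TPM at 24 h, and 7.88 and 7.41 TPM at 48 h. Every treated library was above both untreated ones, and the 6 and 12 h libraries were above the later ones. *SEMA3F* rose by 1.28 on the log2 scale at 6 h (SE 0.19, edgeR adjusted p = 0.0065), by 1.56 at 12 h (SE 0.19, adjusted p = 0.0017) and by 0.76 at 48 h (SE 0.19, adjusted p = 0.012). The 48 h call was lost without 0 h replicate 2 (adjusted p = 0.0968) or 48 h replicate 1 (adjusted p = 0.0855). The 6 h call was lost in 4 of 19 alternatives. These were limma on log2(TPM + 1) with no filter (adjusted p = 0.0585) and the fits without either 0 h library or 6 h replicate 1. At 24 h the log2 fold change of *SEMA3F* was 0.83 (edgeR adjusted p = 0.012), a call lost without 0 h replicate 1 (adjusted p = 0.0567), 0 h replicate 2 (adjusted p = 0.105), 24 h replicate 1 (adjusted p = 0.0717) or 24 h replicate 2 (adjusted p = 0.0678).

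*SEMA3E*, which binds plexin D1 without a neuropilin, was below its untreated level at the times when its receptor was above its own. It had 8.90 and 10.2 TPM at 0 h, 8.02 and 7.78 TPM at 6 h, 5.85 and 5.35 TPM at 12 h, 5.33 and 4.80 TPM at 24 h, and 7.75 and 7.28 TPM at 48 h. All treated libraries were below both untreated ones, with the lowest values at 24 h. Between 12 h and 48 h both genes rose, *SEMA3E* by 0.46 and *PLXND1* by 1.30 on the log2 scale (edgeR adjusted p = 0.045 and 9.7e-05). The *SEMA3E* call between these times was lost in 14 of 18 alternatives. *SEMA3E* fell by 1.00 on the log2 scale at 24 h (SE 0.15, edgeR adjusted p = 0.0013), a call that held under all 19 alternatives. The 48 h log2 fold change of -0.42 (edgeR adjusted p = 0.048) lost its call in 15 of 19, including without each 0 h and each 48 h replicate (adjusted p up to 0.261). *SEMA3G*, a neuropilin 2 ligand of vascular cells, had 2.34 and 3.19 TPM at 0 h, 3.43 and 3.29 TPM at 6 h, 6.22 and 4.98 TPM at 12 h, 5.90 and 5.67 TPM at 24 h, and 7.60 and 7.22 TPM at 48 h. *SEMA3B*, another candidate tumour suppressor of that chromosome arm, had 2.46 and 3.16 TPM at 0 h, 3.18 and 3.18 TPM at 6 h, 2.17 and 3.02 TPM at 12 h, 5.20 and 7.15 TPM at 24 h, and 6.45 and 6.53 TPM at 48 h. Both genes had their untreated libraries below their 24 and 48 h libraries. *SEMA3G* rose by 1.35 on the log2 scale at 48 h (SE 0.20, edgeR adjusted p = 0.00068). *SEMA3B* rose by 1.14 (SE 0.24, edgeR adjusted p = 0.0052), a call lost without 0 h replicate 1 (adjusted p = 0.0617). *SEMA3D* had 0.693 to 1.96 TPM and passed in no comparison.

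**Figure D3:**
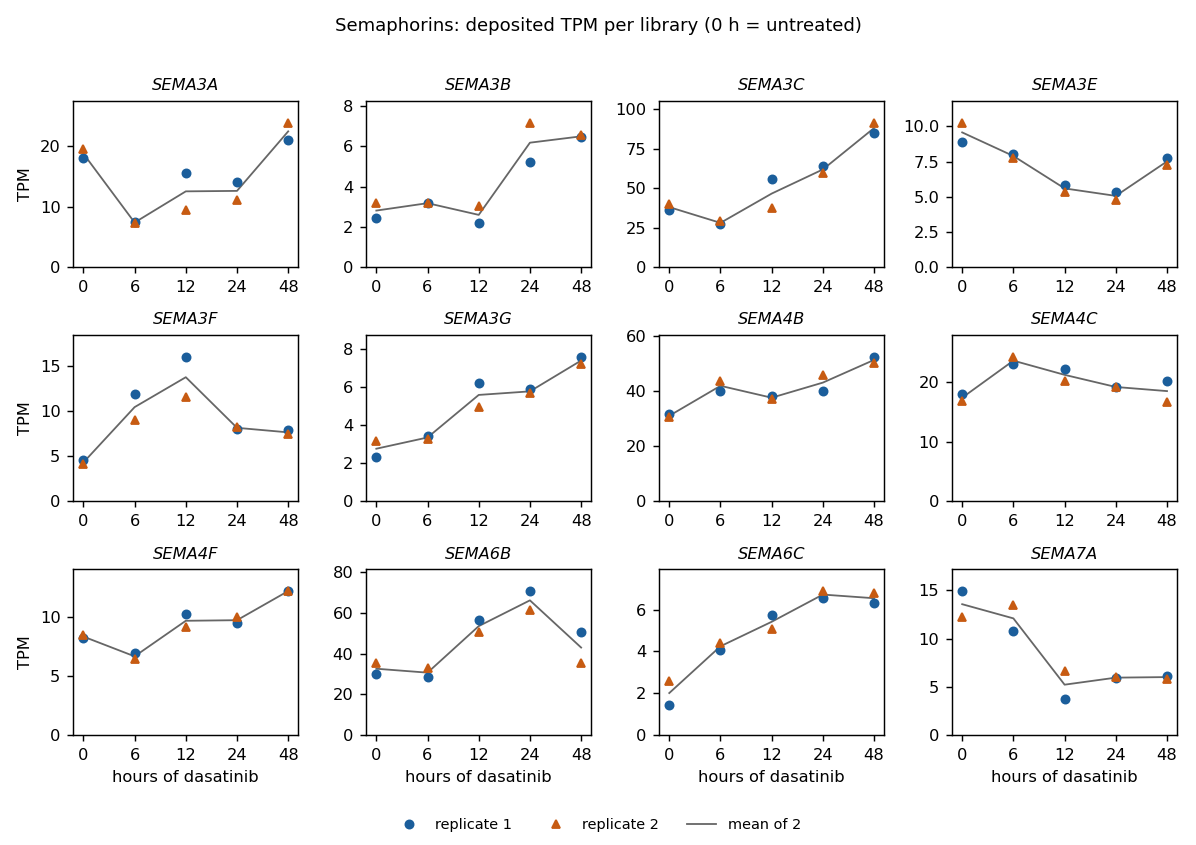
Deposited TPM (y axes, scales differ) against hours of dasatinib (x axes, evenly spaced categories) for 12 semaphorin genes, with a circle for replicate 1, a triangle for replicate 2 and a line through their mean. *SEMA3A* is lowest at 6 h, *SEMA3F* is highest at 12 h, *SEMA3C* is highest at 48 h, and *SEMA7A* is at 3.80 to 6.67 TPM from 12 h on.

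The membrane-bound semaphorins changed in both directions. *SEMA4B* had 31.6 and 30.4 TPM at 0 h, 40.2 and 43.6 TPM at 6 h, 38.0 and 37.1 TPM at 12 h, 40.2 and 46.0 TPM at 24 h, and 52.4 and 50.2 TPM at 48 h. It rose by 0.65 on the log2 scale at 48 h (SE 0.11, edgeR adjusted p = 0.0017). *SEMA4F*, described in neurons and prostate cancer, had 8.23 and 8.48 TPM at 0 h, 6.94 and 6.42 TPM at 6 h, 10.2 and 9.15 TPM at 12 h, 9.49 and 9.99 TPM at 24 h, and 12.2 and 12.2 TPM at 48 h. The call of its rise of 0.47 at 48 h (SE 0.13, edgeR adjusted p = 0.017) was lost in 5 of 19 alternatives. These were no filter on low counts (adjusted p = 0.0652) and the fits without any 1 of the 0 h and 48 h libraries. *SEMA4G* had 1.36 and 1.47 TPM at 0 h, 1.09 and 1.06 TPM at 6 h, 1.71 and 1.23 TPM at 12 h, 2.12 and 3.06 TPM at 24 h, and 3.40 and 3.79 TPM at 48 h. It rose by 1.27 at 48 h (SE 0.27, edgeR adjusted p = 0.0051), but 28.0% of its exonic bases overlap genes on the opposite strand, *MRPL43* among them, and the sources used here do not give the strand setting of the counting. *SEMA4C*, a plexin B2 ligand, had 18.0 and 16.8 TPM at 0 h, 23.0 and 24.2 TPM at 6 h, 22.2 and 20.2 TPM at 12 h, 19.2 and 19.2 TPM at 24 h, and 20.3 and 16.7 TPM at 48 h. *SEMA4D*, the plexin B1 ligand, had 4.60 and 4.48 TPM at 0 h, 5.46 and 5.39 TPM at 6 h, 6.02 and 4.04 TPM at 12 h, 3.86 and 4.25 TPM at 24 h, and 4.501 and 3.64 TPM at 48 h. For both genes the 48 h libraries overlapped the untreated ones, and neither passed at any time against 0 h.

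The class 6 semaphorins are transmembrane ligands of class A plexins. *SEMA6C* had 1.46 and 2.57 TPM at 0 h, 4.09 and 4.41 TPM at 6 h, 5.75 and 5.09 TPM at 12 h, 6.54 and 6.88 TPM at 24 h, and 6.29 and 6.79 TPM at 48 h. It was above the untreated libraries from 6 h on and changed little after 24 h. *SEMA6C* rose by 1.62 on the log2 scale at 48 h (SE 0.24, edgeR adjusted p = 0.00063). Its 6 h call (log2 fold change 1.09, edgeR adjusted p = 0.044) was lost in 10 of 19 alternatives. These were the 3 limma fits (adjusted p up to 0.133) and the fits without 0 h replicate 1 or any 1 of the 6 h, 24 h and 48 h libraries. *SEMA6B*, the most abundant of the class, had 29.97 and 35.2 TPM at 0 h, 28.4 and 33.0 TPM at 6 h, 56.2 and 50.7 TPM at 12 h, 70.6 and 61.5 TPM at 24 h, and 50.5 and 35.4 TPM at 48 h. It rose by 0.93 at 24 h (SE 0.19, edgeR adjusted p = 0.0072), lost without 0 h replicate 1 (adjusted p = 0.0818) or 24 h replicate 1 (adjusted p = 0.0762), and its 48 h log2 fold change of 0.33 did not pass (adjusted p = 0.21). *SEMA6D* had 0.646 and 0.556 TPM at 0 h, 0.512 and 0.470 TPM at 6 h, 0.681 and 0.419 TPM at 12 h, 0.976 and 0.944 TPM at 24 h, and 1.10 and 1.54 TPM at 48 h. Its call at 48 h (log2 fold change 1.05, edgeR adjusted p = 0.035) was lost in 11 of 19 alternatives, among them without each replicate at 0, 6, 24 and 48 h (adjusted p up to 0.225). *SEMA6A* had 0.517 to 1.11 TPM and passed in no comparison.

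*SEMA7A*, the only semaphorin anchored to the membrane by a lipid, which binds plexin C1 and integrins, was the member lowered most at 48 h. It had 14.9 and 12.2 TPM at 0 h, 10.7 and 13.4 TPM at 6 h, 3.80 and 6.67 TPM at 12 h, 5.90 and 6.02 TPM at 24 h, and 6.17 and 5.87 TPM at 48 h. The 6 h libraries overlapped the untreated ones, and the 12, 24 and 48 h libraries all lay below them. *SEMA7A* fell by 1.24 on the log2 scale at 48 h (SE 0.28, edgeR adjusted p = 0.0067). The 48 h call was lost without 0 h replicate 1 (adjusted p = 0.0612) or 48 h replicate 2 (adjusted p = 0.0637). *SEMA4A*, *SEMA5A* and *SEMA5B* had 0 to 6 counts in every library and were not tested.

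The number of members called grew with time. At 6 h, 2 of 30 were higher (*SEMA3F* and *SEMA6C*) and 2 lower (*PLXNA2* and *SEMA3A*), beside 1.24% higher and 1.49% lower of all genes, with a median of 0.03 over the members and 0.01 over all genes. At 12 h, 5 were higher and 2 lower, beside 3.93% and 3.22% of all genes, with a median of 0.23 over the members and 0.00 over all genes. At 24 h, 14 were higher and 4 lower, beside 9.73% and 10.2%, with a median of 0.60 over the members and 0.02 over all genes. The 4 comparisons share the 0 h libraries. The 12 h calls were all lost when edgeR was fitted to the 12 h and 0 h libraries alone. That fit called 0 higher and 0 lower of all 14603 genes, and 10 members had an unadjusted p under 0.05. At 24 h, the calls of *NRP1*, *PLXDC2*, *PLXNB1*, *PLXND1*, *SEMA3E* and *SEMA6C* held under all 19 alternatives. The number of members called at 24 h fell without any 1 of the 0 h and 24 h libraries, as did the number over all genes. At 6 h the number called rose without either 12 h library, over the members and over all genes. It fell over both without any 1 of the other libraries. The same held for the number called at 12 h.

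**Figure D4:**
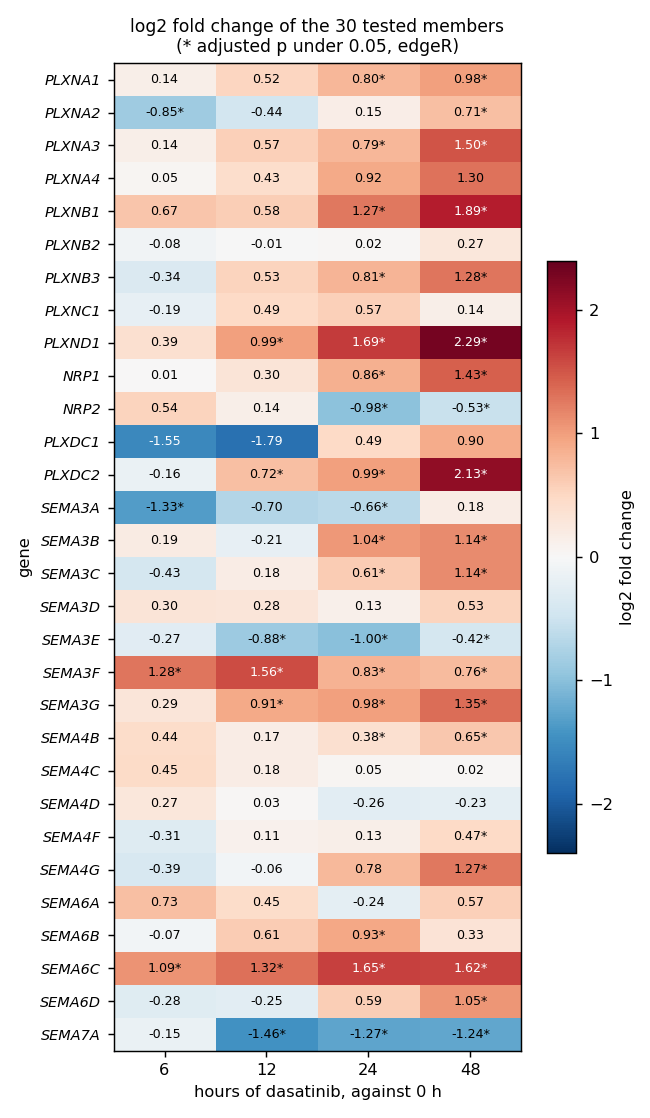
Log2 fold change against 0 h (colour and printed value) of the 30 tested members (rows) at 6, 12, 24 and 48 h of dasatinib (columns), with an asterisk where edgeR's adjusted p is under 0.05. Most rows are red at 48 h, with *PLXND1* at 2.29, while *NRP2*, *SEMA3E* and *SEMA7A* are blue and called there.

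The late and early effects were compared directly. Between 48 h and 6 h, 15 members were higher and 3 lower at 48 h, beside 16.2% and 17% of all genes. The higher ones included 6 of 9 plexins. The count of lower members fell without 6 h replicate 2 or 48 h replicate 2 and rose without either 12 h library, as did the count over all genes. *PLXNA2* was higher at 48 h than at 6 h by 1.56 on the log2 scale (edgeR adjusted p = 6.7e-05) and *SEMA3A* by 1.52 (adjusted p = 0.00033). Between 48 h and 12 h, a comparison added after the data were seen, 14 members were higher and 2 lower, beside 11.5% and 11.2% of all genes, and the 2 lower ones were *NRP2* and *SEMA3F*. In the 2 groups alone 5 were higher and 0 lower (15 members at an unadjusted p under 0.05), beside 413 higher and 371 lower of 14928 genes. The member counts fell without either 48 h library and rose without 12 h replicate 2, as did the counts over all genes. *NRP2*, with a log2 fold change of -0.67 (edgeR adjusted p = 0.022), lost its call in 6 of 18 alternatives, among them without 48 h replicate 1 (adjusted p = 0.0555) or 48 h replicate 2 (adjusted p = 0.183). The log2 fold change of *SEMA3F* was -0.81 (SE 0.18, edgeR adjusted p = 0.011), a call lost without 48 h replicate 1 (adjusted p = 0.0561) or 48 h replicate 2 (adjusted p = 0.106). Between 48 h and 24 h, likewise added, 4 members were higher (*NRP1*, *PLXDC2*, *PLXNA3* and *PLXND1*) and 0 were lower, beside 1.89% and 1.28% of all genes. None of these 4 calls held under all 19 alternatives, and each was lost without any 1 of the 24 h and 48 h libraries. Those fits called far fewer of all genes as well. Without the 12 h group 13 members were higher and 1 lower, beside 1671 higher and 1852 lower of 15473 genes. The count of higher members fell without any 1 of the 0 h and 6 h libraries, as did the count over all genes. For *PLXND1* the log2 fold change was 0.60 (edgeR adjusted p = 0.033), and adjusted p was 0.301 without 24 h replicate 1, 0.251 without 24 h replicate 2, 0.276 without 48 h replicate 1 and 0.149 with 48 h replicate 2 left out.

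Of 36 listed cytoplasmic effectors and regulators of plexins, 2 were higher and 7 lower (19.4%) at 48 h, beside 16% higher and 16.3% lower of all genes, with a median of 0.06 over the list. Among the lower ones, *LIMK2*, a cofilin kinase, fell by 0.84 on the log2 scale (edgeR adjusted p = 0.0061) and *RRAS2*, of the R-Ras family on which plexins act, by 0.51 (adjusted p = 0.011). The higher ones were *MRAS* at 0.64 (edgeR adjusted p = 0.020) and *MICAL1*, an actin oxidising enzyme, at 0.44 (adjusted p = 0.030). Without either 12 h library, 14 of this list were higher and 10 lower, where 4061 and 4303 of 16555 genes were called without 12 h replicate 1 and 4048 and 4303 of 16831 with 12 h replicate 2 left out. There were 1 higher and 3 lower without 0 h replicate 1, 0 and 3 without 0 h replicate 2, 0 and 3 without 48 h replicate 1, and 0 and 4 with 48 h replicate 2 left out, fits in which 1418 to 1497 of all genes were higher and 1418 to 1545 lower. Among 3 tested genes of the CRMP family, cytosolic mediators of semaphorin 3A, *DPYSL2* rose by 0.97 (SE 0.14, edgeR adjusted p = 0.00054) and the other two did not pass.

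Of 16 tested co-receptors and other partners, 6 were higher and 0 lower at 48 h, beside 16% and 16.3% of all genes, with a median of 0.39. The collagen receptor subunit gene *ITGA1* rose by 1.86 on the log2 scale (edgeR adjusted p = 0.00014), *MMP14*, a membrane protease that cleaves semaphorin 4D, by 1.07 (adjusted p = 0.00098), *MST1R*, a partner of class B plexins, by 0.73 (adjusted p = 0.0026) and *ITGB1* by 0.50 (adjusted p = 0.0049). This count was 13 without either 12 h library, 3 without 0 h replicate 2, 3 without 48 h replicate 2, and 4 without 0 h replicate 1 or 48 h replicate 1, while the count over all genes moved in the same direction (4061 higher without 12 h replicate 1 and 4048 without 12 h replicate 2, 1457 without 0 h replicate 2, 1497 without 48 h replicate 2, 1418 without 0 h replicate 1 and 1480 without 48 h replicate 1, against 2512 with all libraries). Of 6 tested VEGF ligands and receptors, 2 were higher and 0 lower, beside the same 16% and 16.3% of all genes. They were the neuropilin 1 ligands *PGF*, at 2.32 (SE 0.16, edgeR adjusted p = 8.2e-06), and *VEGFA*, at 1.88 (SE 0.15, adjusted p = 1.8e-05), both called together with *NRP1*. Of 17 tested netrins, slits and their receptors, another guidance system, 5 were higher and 2 lower (11.8%), again beside 16% and 16.3% of all genes, with a median of 0.24. *NTN4* rose by 0.85 (edgeR adjusted p = 0.00045) and the slit receptor gene *ROBO4* fell by 1.17 (adjusted p = 0.0013). The count of higher ones fell without any 1 of the 0 h and 48 h libraries, as did the count over all genes. That of lower ones fell without 0 h replicate 1 or either 48 h library, again as did the count over all genes.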

How the data were processed

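RNA of MDA-MB-231 cells was sequenced at 5 times of dasatinib treatment, with 2 biological replicates per time (10 libraries). After trimming (Trim Galore), the authors used STAR 2.5.2b for alignment to hg38 and featureCounts for counting, and they deposited raw counts and TPM per gene symbol. The annotation, the strand setting and the step from count to TPM are not given in the sources used here. Groups come from the sample labels.

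Counts were tested with edgeR 4.0.16 in R 4.3.3 (filter on low counts, TMM, robust quasi-likelihood test, 1 fit over 5 groups), with Benjamini-Hochberg adjustment over all 15727 genes and a threshold of 0.05. A standard error is the log2 fold change divided by the square root of F. The p-values measure only the spread between 2 samples per group. The members and the gene lists were chosen with earlier results of these data known. Values in every library are given for members with a mean of at least 5 TPM in any group or past the threshold at 48 h, and of each list up to 4 genes per direction by adjusted p at 48 h, and the results of some list genes are not reported here. The ratios, *PLXNA4*, *NRP2* and *SEMA3A* at other times and the comparisons of 48 h with 12 h and with 24 h were chosen after values were seen.

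Alternatives were no filter, RLE size factors, DESeq2 1.42.0, the 2 groups alone, no 12 h group, a replicate block, limma 3.58.1 on log2(TPM + 1) or log2(TPM + 0.1) with at least 1 TPM in 2 libraries or no filter, and each library left out, whose group then holds 1 sample assumed to vary like the other groups. Promoters came from RefSeq, and gene positions from GENCODE 44.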

Additional observations from a re-analysis of the deposited data

Results flagged for a closer look

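For 18 members the effect at 48 h differed from that at 6 h in a direct test between these times (adjusted p under 0.05 from edgeR over all genes). The 48 h log2 fold change minus the 6 h one was 2.29 for *PLXDC2*, 1.90 for *PLXND1*, 1.65 for *SEMA4G*, 1.62 for *PLXNB3*, 1.56 for *SEMA3C*, 1.56 for *PLXNA2*, 1.52 for *SEMA3A*, 1.42 for *NRP1*, 1.36 for *PLXNA3*, 1.34 for *SEMA6D*, 1.22 for *PLXNB1*, 1.06 for *SEMA3G*, 0.95 for *SEMA3B*, 0.83 for *PLXNA1* and 0.79 for *SEMA4F*. It was -1.09 for *SEMA7A*, -1.07 for *NRP2* and -0.43 for *SEMA4C*. Of these 18 calls, 14 held under all 19 alternatives. The call of *SEMA3B* was lost without any 1 of the 6 h and 48 h libraries, and that of *SEMA7A* without 6 h replicate 2 or either 48 h library. That of *SEMA6D* was lost in 5 of 19 alternatives. These were limma on filtered log2(TPM + 1) and log2(TPM + 0.1) (adjusted p = 0.08 and 0.0846) and the fits without either 6 h library or 48 h replicate 2. That of *SEMA4C* was lost in 10 of 19 alternatives.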

How the results depend on the processing

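No call reversed under any alternative. The counts that moved by over 1.5 times follow, and the cause was not tested. At 6 h against 0 h (2 higher, 2 lower) there were 6 higher in the 2 groups alone, beside 1386 of 14476 genes. There were 7 higher without the 12 h group, beside 1609 of 15473 genes. By limma 1 was higher and 1 lower with either pseudocount, beside 112 or 122 higher and 153 or 166 lower of 14206 genes. With no filter limma gave 0 and 0 (11 at an unadjusted p under 0.05), beside 76 and 100 of 22945 genes. The counts of this and the later comparisons also moved with a library left out, over the members and over all genes. At 12 h (5 and 2) there were 8 higher and 4 lower with no filter, beside 1186 and 1150 of 22945 genes. DESeq2 gave 8 higher, beside 1121 of 15190 genes, and limma with no filter 3 higher, beside 299 of 22945. In the 2 groups alone there were 0 and 0 (10 at an unadjusted p under 0.05), beside 0 and 0 of 14603 genes. At 24 h (14 and 4) there were 2 lower in the 3 limma fits, beside 1130 or 1124 of 14206 genes and, with no filter, 892 of 22945. There were 7 to 16 higher and 2 to 4 lower with each library left out, and the counts over all genes moved in these fits too. At 48 h (17 and 3) the count of lower members was 1 with no filter, RLE size factors or limma. Over all genes it was 2901 of 22945 with no filter and 2460 of 15727 with RLE size factors. By limma it was 2066 or 2092 of 14206 genes and, with no filter, 1761 of 22945. Between 48 h and 6 h (15 and 3) there were 5 lower with no filter, in the 2 groups alone and without the 12 h group, and at most 5 otherwise. Over all genes 3097 of 22945 were lower with no filter, 4300 of 14846 in the 2 groups alone and 4320 of 15473 without the 12 h group. Between 48 h and 12 h (14 and 2) there were 5 and 0 in the 2 groups alone (15 at an unadjusted p under 0.05), beside 413 and 371 of 14928 genes. The 3 limma fits gave 1 lower, beside 1711 or 1718 of 14206 genes and, with no filter, 1353 of 22945. Between 48 h and 24 h (4 and 0) there were 13 higher in the 2 groups alone, beside 1876 of 14998 genes, and without the 12 h group, beside 1671 of 15473. DESeq2 gave 8, beside 620 of 13036 genes, and no filter 7, beside 547 of 22945. The 3 limma fits gave 1 higher, beside 207 or 183 of 14206 genes and, with no filter, 122 of 22945.

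Deviations of replicate 1 from the group means, taken over genes, correlated at -0.037 to 0.104 between groups. With 2 libraries per group this cannot decide whether replicates of the same number belong together, and the labels do not say. With the replicate block, 1 member was lower at 48 h against 0 h in place of 3 and 5 were lower between 48 h and 6 h in place of 3, and 13 were higher at 24 h in place of 14. Over all genes these counts were 2556, 2686 and 1496, in place of 2565, 2674 and 1531.

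With 2 libraries per group, depth limits mainly the genes with few counts, such as *PLXDC1* and *PLXNA4*.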
